A study of Mus musculus with 6 samples.

Results

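The genes described are the cyclins that drive G1 and the G1/S transition, with the inhibitors of their kinases. They were chosen by symbol and number 10 of the 53599 gene symbols in the table. The D-type cyclins were Ccnd1, Ccnd2 and Ccnd3, the E-type cyclins Ccne1 and Ccne2, and the A-type cyclin Ccna2. The inhibitors were Cdkn1a (p21) and Cdkn1b (p27) of the CIP/KIP family, and Cdkn2a (p16 and ARF) and Cdkn2c (p18) of the INK4 family. RNA-seq counts came from mouse hepatocytes 4 days after injection of adeno-associated virus of serotype 8 (AAV8), 3 libraries in each of 2 groups. The Sox4 group received AAV8-TBG-HA-Sox4-P2A-Cre, which carries HA-tagged mouse Sox4 and Cre recombinase, and its genotype label is Sox4. The empty vector (EV) group received AAV8-TBG-Cre, and its genotype label is WT. Cre was thus present in both groups, and the TBG promoter restricts both vectors to hepatocytes. The study's methods give male Rosa-LSL-Cas9-EGFP mice on C57BL/6J, in which Cre switches on Cas9 and EGFP, so that both groups would carry these as well. The methods put the age of mice in the expression experiments at 4 to 8 weeks. Hepatocytes were released with liberase and enriched on Percoll, without sorting for cells that took up the vector.

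Progress from G1 into S phase is controlled by kinases that need a cyclin partner. Cyclins D1, D2 and D3 bind CDK4 and CDK6, which phosphorylate RB and thereby free E2F factors to transcribe S-phase genes, among them those of cyclins E and A, the partners of CDK2. INK4 proteins bind CDK4 and CDK6 and displace cyclin D, whereas CIP/KIP proteins bind the assembled complexes and restrain CDK2 most strongly. Hepatocytes of the adult liver are mostly quiescent and re-enter the cycle after injury, when cyclin D1 is the D-type cyclin that accumulates. p21 is a transcriptional target of p53 that limits hepatocyte division after damage.

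Total counts lay between 15090629 and 16249382 in EV and between 16679195 and 16964860 in Sox4. Sox4 itself had 2, 0 and 3 counts in the EV libraries and 11816 to 21697 in the Sox4 libraries, in the direction of the labels. Levels are CPM, a gene's count per 1e06 counts of a library whose size was scaled by the trimmed mean of M-values method (TMM). The detection floor was set at 3 counts, at most 0.231 CPM in any library, and covers counting error only. The ratio of Sox4 to EV library sizes was 1.48 after TMM and 1.07 before it, and scaling by library size alone moved the median over tested genes from 0.04 to 0.51 on the log2 scale. Hepatocyte markers were abundant in every library, Alb alone at 99191 ± 12801 CPM in EV and 66525 ± 5764 CPM in Sox4 (SD, n = 3). In Sox4, 6 of 9 such markers fell (4 of 9 with library size alone). Of all tested genes 26.0% fell (12.8% with library size alone).

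Of the 10 genes, 9 passed the expression filter. Of these, 6 rose in the Sox4 libraries (Ccnd1, Ccnd2, Ccnd3, Ccne1, Ccna2 and Cdkn1a), 1 fell (Cdkn2c) and 2 did not pass the test (Ccne2 and Cdkn1b), by the edgeR quasi-likelihood test with a Benjamini-Hochberg adjusted p threshold of 0.05 over 12691 genes. Changes were common in these libraries: 55.1% of all tested genes passed, 29.0% as higher and 26.0% as lower. The median log2 fold change of the 9 genes was 1.52, against 0.04 for all genes tested. With library size alone 7 of the 9 rose and 0 fell, where 51.0% of all tested genes rose. The plot of levels by library shows all 10 genes.

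**Figure D1:**
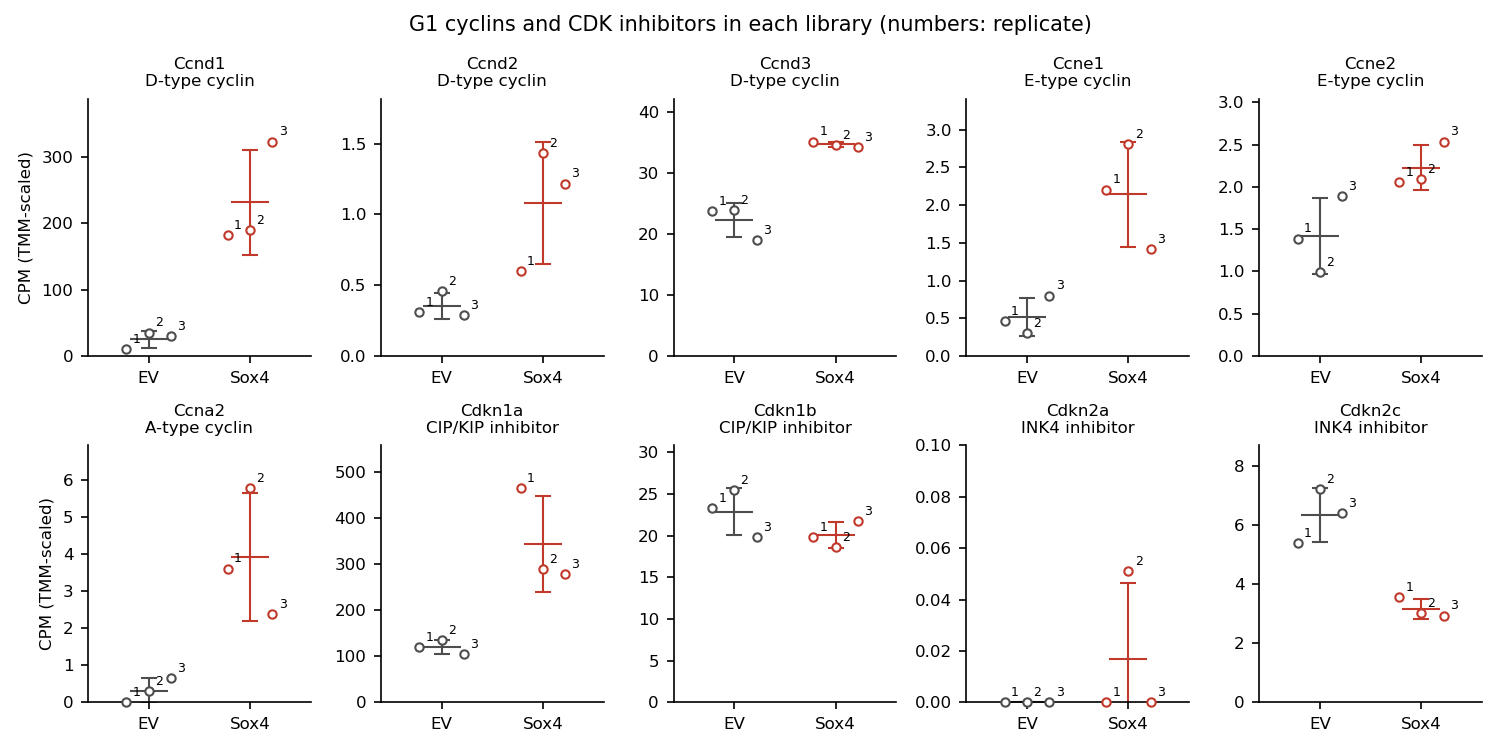
TMM-scaled CPM (y axis, a separate linear scale from 0 for each gene) of the 10 genes in the EV (grey) and Sox4 (red) libraries. Points are libraries numbered by replicate, horizontal bars are means and error bars SD (n = 3). The groups overlap for Cdkn1b, and Cdkn2a had a single count in 1 library.

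Ccnd1, the partner of CDK4 and CDK6 that accumulates in regenerating liver, rose from 24.9 ± 13.1 to 231.7 ± 79.2 CPM (SD, n = 3). Its levels were 10.1, 35.1 and 29.5 CPM in EV 1 to 3 and 183, 189 and 323 CPM in Sox4 1 to 3. EV 1 was the lowest control and Sox4 3 the highest treated library, and the groups were far apart. The log2 fold change was 3.22 (SE 0.62, adjusted p = 0.00241), a 9.30-fold increase. It lay between 2.83 without EV replicate 1 and 3.53 without EV replicate 2.

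Ccnd3, the D-type cyclin best known from lymphoid cells, had 23.8, 24.0 and 19.0 CPM in EV and 35.2, 34.7 and 34.4 CPM in Sox4. The increase was small but the Sox4 libraries were almost equal, and the log2 fold change was 0.64 (SE 0.11, adjusted p = 0.00194). Ccnd2 was near the floor, with 4, 6 and 4 counts in EV and 12, 28 and 24 counts in Sox4. Its level rose from 0.351 ± 0.0906 to 1.08 ± 0.430 CPM (SD, n = 3), a change of 1.60 on the log2 scale (SE 0.37, adjusted p = 0.0253). This call was the least stable of the 7, since the adjusted p rose to 0.0808, 0.0517 and 0.088 without EV replicate 1, 2 or 3, to 0.0997 and 0.0671 without Sox4 replicate 2 or 3, and to 0.0531 with limma-voom.

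Levels of different genes were compared per kb of exon. The summed level of the D-type cyclins was 4.89, 10.2 and 8.46 CPM per kb in EV and 42.9, 44.3 and 72.7 CPM per kb in Sox4. Ccnd1 made up 43.8%, 72.8% and 74.0% of that sum in EV 1 to 3 and 90.5%, 90.7% and 94.4% in Sox4 1 to 3. The share of Ccnd3 went the other way, from 55.5%, 26.7% and 25.6% to 9.36%, 8.92% and 5.39%, although its own level rose. In EV 1 there was more Ccnd3 than Ccnd1 per kb (a Ccnd1 to Ccnd3 ratio of 0.790), and in the other five libraries more Ccnd1, with ratios of 2.72 and 2.89 in EV and 9.67 to 17.5 in Sox4. Shares and ratios within a library do not depend on library scaling. Ccnd2 stayed below 1% of the sum in every library.

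**Figure D2:**
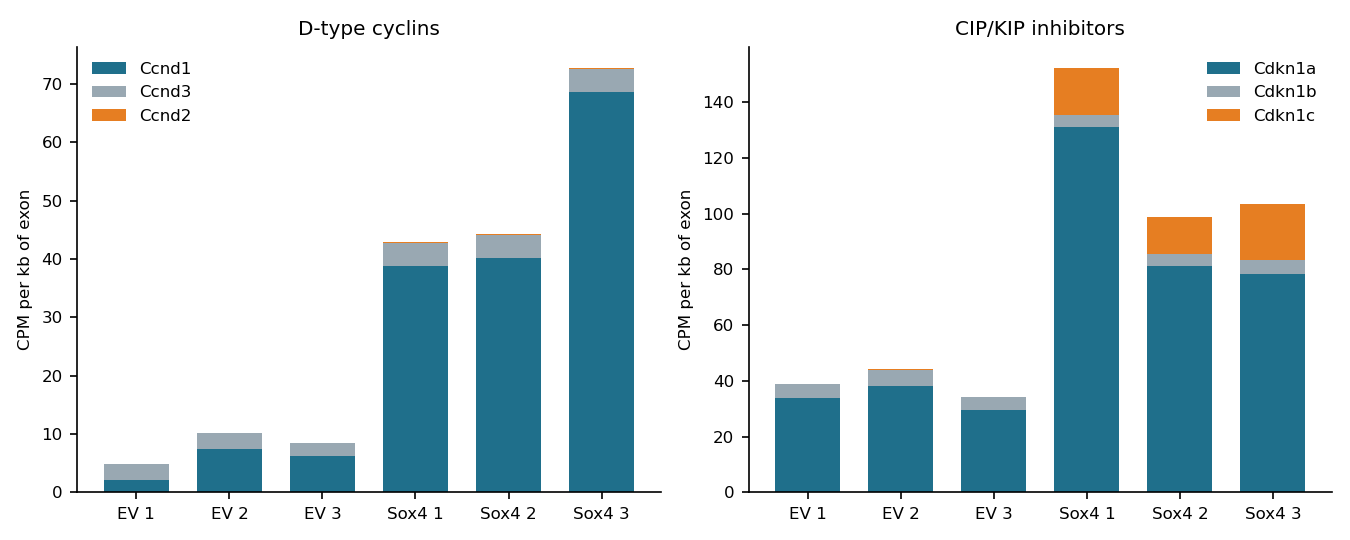
Stacked level per kb of exon (y axis, CPM per kb, from 0) in each library for the D-type cyclins (left) and the CIP/KIP inhibitors with Cdkn1c added (right). Ccnd1 fills most of each Sox4 bar on the left, and on the right Cdkn1c is visible only in the Sox4 libraries.

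The E-type and A-type cyclins were far less abundant than Ccnd1 in both groups. Ccna2, the CDK2 and CDK1 partner of S phase and G2, had 0, 4 and 9 counts in EV and 72, 113 and 47 counts in Sox4, and rose from 0.319 ± 0.327 to 3.92 ± 1.72 CPM (SD, n = 3). The log2 fold change of 3.57 (SE 0.87, adjusted p = 0.00187) rests on few EV counts and stood at 4.60 when EV replicate 3 was left out and at 2.99 when EV replicate 1 was left out. Ccne1, which activates CDK2 at the start of S phase, had 6, 4 and 11 counts in EV and 44, 55 and 28 counts in Sox4. Its level rose from 0.522 ± 0.253 to 2.14 ± 0.697 CPM (SD, n = 3), a change of 2.02 on the log2 scale (SE 0.42, adjusted p = 0.00485).

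Ccne2, its paralog, had 1.39, 0.987 and 1.89 CPM in EV and 2.06, 2.09 and 2.53 CPM in Sox4. The groups did not overlap, as in 33.1% of all tested genes in that direction, but the log2 fold change of 0.64 (SE 0.26) did not pass (adjusted p = 0.146) and did so with library size alone, at 1.11 (adjusted p = 0.0189). Per kb of exon, Ccne2 was above Ccne1 in EV (0.407 against 0.196 CPM per kb) and below it in the Sox4 means (0.637 against 0.806), although in Sox4 3 Ccne2 was still the higher, at 0.725 against 0.533 CPM per kb. Among the cyclins, Ccna2 and Ccne1 thus passed Ccne2 in the order of mean levels. The SDs of all 3 overlap in the Sox4 libraries.

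The 250 bases before the annotated start of Ccne1 are shown as an example of a G1 cyclin promoter, from RefSeq on GRCm38.p6 at chr7:38107491-38107740, minus strand, written 5′ to 3′. Capitals mark GGGCGG on either strand, the core of the box that SP1 binds. It was found in 32.7% of the 32817 promoter windows of the same length and is thus common.

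Ccne1 promoter: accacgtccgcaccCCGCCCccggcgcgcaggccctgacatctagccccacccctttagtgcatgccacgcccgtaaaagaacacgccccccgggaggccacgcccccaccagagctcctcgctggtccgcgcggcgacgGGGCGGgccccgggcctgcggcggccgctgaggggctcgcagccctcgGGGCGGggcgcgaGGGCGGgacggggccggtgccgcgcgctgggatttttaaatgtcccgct

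The letters of an E2F site (TTTGGCGC, TTTGCCGC, TTTCGCGC or TTTCCCGC on either strand, in 1.86% of windows) were not in this window. Of the 10 genes, 6 had a promoter entry in the table used. Of those, Cdkn2a held the E2F letters.

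Of the CIP/KIP inhibitors, Cdkn1a was the most abundant of the 10 genes per kb in both groups, and rose further in Sox4. Its levels were 120, 136 and 106 CPM in EV 1 to 3 and 465, 289 and 279 CPM in Sox4 1 to 3. Sox4 1 was the highest and lay well above the other treated libraries, and the groups did not overlap. The log2 fold change was 1.52 (SE 0.26, adjusted p = 0.000245), a 2.86-fold increase, and 1.23 without Sox4 replicate 1. Cdkn1b had 23.3, 25.4 and 19.8 CPM in EV and 19.8, 18.6 and 21.7 CPM in Sox4. The groups overlapped and the log2 fold change of -0.19 (SE 0.12) did not pass (adjusted p = 0.278). With library size alone it was 0.28 (adjusted p = 0.103), so that no direction can be given. The ratio of Cdkn1a to Cdkn1b, which is free of the scaling, was 6.60, 6.85 and 6.82 per kb in EV and 30.02, 19.9 and 16.5 in Sox4.

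Cdkn1a has 2 annotated starts in the RefSeq table, and both windows are shown because they differ in the motifs that they hold. In the first, at chr17:29090729-29090978, plus strand, capitals mark a match to the p53 response element, a pair of decamers with at most 1 mismatch, which lies 51 to 32 bases before the start. Such a match was found in 19 of 32817 windows (0.0579%). In the second, at chr17:29093519-29093768, plus strand, capitals mark GGGCGG. A match describes the letters only and says nothing of binding in these cells.

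Cdkn1a first start: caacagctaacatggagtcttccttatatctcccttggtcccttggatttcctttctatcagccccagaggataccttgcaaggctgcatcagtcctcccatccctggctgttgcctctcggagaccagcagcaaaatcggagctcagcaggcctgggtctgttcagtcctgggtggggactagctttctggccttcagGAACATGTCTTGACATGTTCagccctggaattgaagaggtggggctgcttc
Cdkn1a second start: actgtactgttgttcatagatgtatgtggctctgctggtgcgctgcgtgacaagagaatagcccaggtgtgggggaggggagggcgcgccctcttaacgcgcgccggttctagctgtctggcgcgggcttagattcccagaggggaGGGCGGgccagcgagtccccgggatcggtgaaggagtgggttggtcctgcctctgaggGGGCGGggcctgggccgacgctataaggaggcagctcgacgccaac

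Other genes known as p53 targets were counted from a list of 18 that did not include Cdkn1a. Of these, 12 rose, 1 fell and 5 did not pass, with a median log2 fold change of 0.75 (0.04 over all tested genes). The share that rose was 66.7%, where 29.0% of all tested genes did. Scaled by library size alone, 14 of the 18 were higher and 1 lower. That is a share of 77.8% higher, beside 51.0% of all tested genes. Fas missed the threshold with DESeq2 and in every fit that left out a library. Btg2 missed it when replicate number was fitted as a block, and in some fits that left out a library. Eda2r, a receptor of the TNF family, rose by a log2 fold change of 2.42 (adjusted p = 5.3e-05). Gadd45a, a stress-induced growth arrest gene, rose by 2.29 (adjusted p = 0.000508) and Plk2, a kinase induced by stress, by 1.42 (adjusted p = 1.84e-05). Sesn1, a stress-induced regulator of mTORC1 signalling named after its values were seen, was the gene that fell, by a log2 fold change of -1.20 (adjusted p = 0.000734). The summed level of the list was 1269, 1525 and 1220 CPM in EV and 2653, 1992 and 1905 CPM in Sox4, and was highest in Sox4 1, the library with the most Cdkn1a. The part of p53 in the changes of Cdkn1a and of these genes was not tested.

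Of the INK4 inhibitors, Cdkn2c, which binds CDK4 and CDK6, was the gene of the 10 that fell. It had 5.39, 7.21 and 6.39 CPM in EV and 3.56, 3.01 and 2.94 CPM in Sox4, without overlap. The log2 fold change was -0.996 (SE 0.15, adjusted p = 0.00436), and -0.53 (adjusted p = 0.0664) with library size alone. Raw counts of 70, 95 and 88 in EV and 71, 59 and 58 in Sox4 were closer than the scaled values, and EV 1 and Sox4 1 differed by 1 count. Cdkn2a, whose products arrest cells through RB and p53, had 0 counts in every EV library and 0, 1 and 0 counts in Sox4. It did not pass the filter, and with no library above the floor no difference was detectable at this depth.

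The fold changes of the 9 tested genes under each scaling, test and left-out library are shown in the plot of fold changes by setting. Ccnd1, Ccnd3, Ccne1, Ccna2 and Cdkn1a rose and passed the threshold in every setting that tested them. Ccne1 and Ccna2 were not among the genes tested at a mean count of at least 50.

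**Figure D3:**
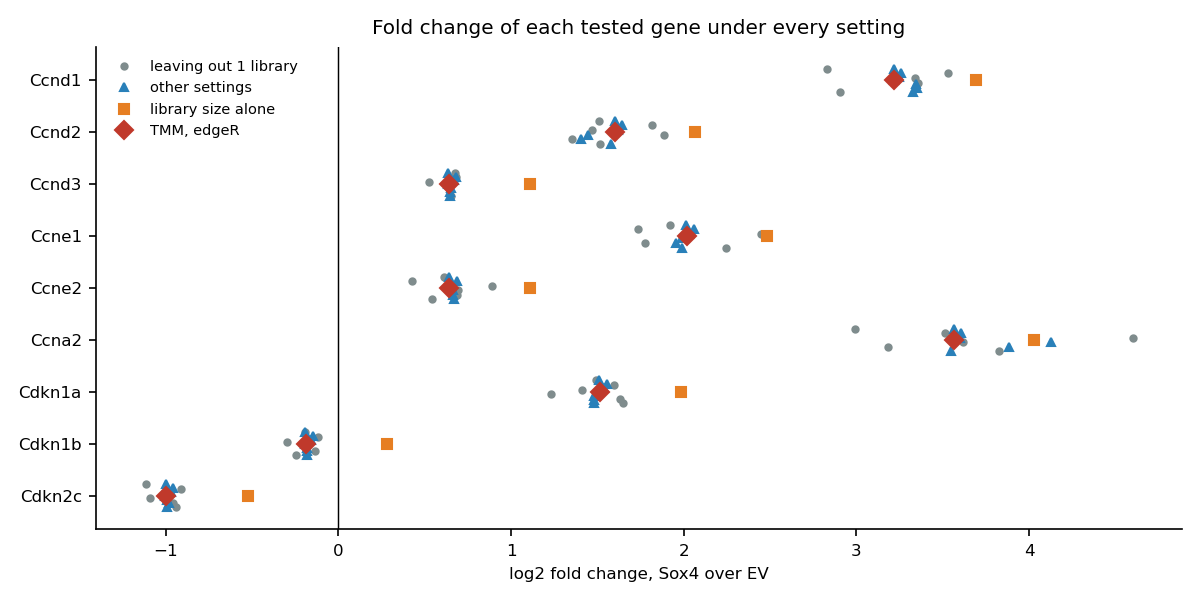
Log2 fold change of Sox4 over EV (x axis) for the 9 tested genes (rows). Diamonds are the TMM values in the text, squares library size alone, triangles other settings and circles fits without 1 library. The squares lie about 0.5 to the right for every gene and carry Cdkn1b across 0.

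Since both cyclins and inhibitors rose, they were set against each other within each library. The ratio of Ccnd1 to Cdkn1a per kb was 0.0635, 0.195 and 0.211 in EV and 0.296, 0.495 and 0.874 in Sox4, so that Cdkn1a remained the more abundant transcript in every library. Sox4 1, with the most Cdkn1a, had the lowest of the treated ratios. The summed D-type cyclins over the sum of Cdkn1a, Cdkn1b and Cdkn1c were 0.125, 0.231 and 0.247 in EV and 0.282, 0.449 and 0.703 in Sox4. Cdk4 over Cdkn2c showed the widest separation of the ratios computed, at 3.73, 2.68 and 2.93 in EV and 42.8, 38.0 and 35.9 in Sox4. These ratios are of transcripts, and no test was run on them.

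In EV the order of mean level per kb was Cdkn1a (33.9 ± 4.29 CPM per kb; SD, n = 3), Ccnd1 (5.28 ± 2.78), Cdkn1b (5.02 ± 0.622), Ccnd3 (2.54 ± 0.321), Cdkn2c (2.36 ± 0.339), Ccne2, Ccne1, Ccna2, Ccnd2 and Cdkn2a. Ccnd1 and Cdkn1b did not differ beyond their spread in EV, nor did Ccnd3 and Cdkn2c. In Sox4 it began with Cdkn1a (96.9 ± 29.5), Ccnd1 (49.2 ± 16.8), Cdkn1b (4.40 ± 0.342), Ccnd3 (3.96 ± 0.0475) and Cdkn2c (1.18 ± 0.126). The gap from Ccnd1 to Cdkn1b, absent in EV, was thus wide in Sox4.

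The rest of the G1/S machinery was taken from lists of 47 genes, of which 43 were tested. Of these 21 rose, 4 fell and 18 did not pass, with a median log2 fold change of 0.49. The share that passed, 58.1%, was near the 55.1% of all tested genes, while 48.8% rose against 29.0% of all. With library size alone 31 rose (72.1%, against 51.0% of all) and 1 fell. All 4 cell cycle kinases rose. Cdk4, the partner of the D-type cyclins, had 23.5 ± 0.849 CPM in EV and 150.1 ± 29.9 CPM in Sox4 (SD, n = 3), a change of 2.68 on the log2 scale (SE 0.16, adjusted p = 1.35e-06). Cdk6, which shares that role, changed less, by 0.78 (adjusted p = 0.00109), and the ratio of Cdk4 to Cdk6 per kb went from 2.87, 2.82 and 3.23 to 14.2, 11.6 and 7.94. Cdk1, the mitotic kinase, rose by 3.21 (adjusted p = 0.000532). Cdk2 rose by 0.49 (adjusted p = 0.0244), a call lost without EV replicate 2 (adjusted p = 0.0662), EV replicate 3 (0.0905) or Sox4 replicate 1 (0.074). Of the 3 subunits of the CDK-activating kinase, Cdk7 rose by 0.86 (adjusted p = 0.00112) and the values of Ccnh (-0.04) and Mnat1 (0.41) did not pass.

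Among these genes, the largest change at a mean count of 20 or more was in Cdkn1c (p57), the third CIP/KIP inhibitor and an imprinted gene. It had 4, 14 and 4 counts in EV and 686, 530 and 809 counts in Sox4, and went from 0.554 ± 0.441 to 34.2 ± 6.97 CPM (SD, n = 3). The log2 fold change was 5.93 (SE 0.53, adjusted p = 2.75e-06), a 61.1-fold increase, and 6.79 without EV replicate 2, the control with the most counts. Per kb it reached 16.7 CPM, above Cdkn1b (4.40) and below Cdkn1a (96.9). Cdkn3, a phosphatase that acts on CDKs and is named here after its values were seen, was at least 8.67-fold higher (1, 0 and 0 counts in EV, 33, 25 and 58 in Sox4, adjusted p = 0.000264). The INK4 gene Cdkn2d had a log2 fold change of -0.74 and did not pass (adjusted p = 0.119), and Cdkn2b was below the filter with 6 counts or fewer in each library.

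Of the 3 pocket proteins, Rbl2 (p130), which holds E2F genes silent in quiescent cells, fell by 0.53 on the log2 scale (adjusted p = 0.00328), but by 0.07 with library size alone (adjusted p = 0.643). Rb1 (0.45) and Rbl1 (0.08) did not pass. Of 9 tested E2F and DP genes 3 rose (33.3%), near the 29.0% of all tested genes. With library size alone 5 rose (55.6%, against 51.0% of all). The 3 were E2f2, by 1.66 (adjusted p = 0.00391), E2f3 by 1.15 (adjusted p = 0.000741) and Tfdp1 by 0.41 (adjusted p = 0.0128). The call for Tfdp1 was lost without EV replicate 1 (adjusted p = 0.0607) or Sox4 replicate 2 (0.0527). Tfdp2 fell by 0.46 on the log2 scale (adjusted p = 0.0331), and this call was lost in 6 of the alternatives, with a fold change near 0 when scaled by library size alone. E2f1, E2f4, E2f5, E2f6 and E2f8 did not pass.

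Cdc25a, the phosphatase that removes inhibitory phosphate from CDK2, rose from 4.28 ± 1.43 to 30.2 ± 1.39 CPM (SD, n = 3), a change of 2.82 on the log2 scale (SE 0.28, adjusted p = 6.51e-06). Pkmyt1, a kinase that places such phosphates on CDK1, rose by 2.19 (adjusted p = 0.00384). Among 10 genes of cyclin and inhibitor turnover 3 rose and 2 fell. Skp2, which with Cks1b marks p27 for degradation, rose by 1.28 (adjusted p = 0.0262) and Cks1b by 1.44 (adjusted p = 0.000409). Skp2 was at 1.95 without EV replicate 2, and its call was lost without EV replicate 1 (adjusted p = 0.084), EV replicate 3 (0.0854) or Sox4 replicate 2 (0.0951). Each of Ambra1, Fbxo4 and Fbxo31 encodes a ubiquitin ligase component described as acting on D-type cyclins. Ambra1 rose by 0.38 (adjusted p = 0.0143; not passed without EV replicate 2 or 3), Fbxo31 fell by 0.95 (adjusted p = 0.000286) and Fbxo4 by 0.63 (adjusted p = 0.00945), the last by 0.16 with library size alone (adjusted p = 0.419).

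Of 7 tested upstream regulators 6 rose (85.7%, against 29.0% of all tested genes). With library size alone all 7 rose, where 51.0% of all tested genes did. Myc, a transcription factor that drives cells into the cycle, went from 5.35 ± 2.37 to 43.3 ± 2.92 CPM (SD, n = 3), a change of 3.02 on the log2 scale (SE 0.37, adjusted p = 2.03e-05). The Polycomb genes Ezh2 and Bmi1, whose products silence the Cdkn2a locus, rose by 2.64 (adjusted p = 7.09e-06) and 1.12 (adjusted p = 8.47e-05). Trp53, which encodes p53, rose by 1.69 (adjusted p = 2.1e-05) and Mdm2, its ubiquitin ligase and target, by 0.67 (adjusted p = 0.00491). Foxm1, a factor for G2 and mitotic genes, had 0, 0 and 4 counts in EV and 58, 82 and 46 in Sox4 (log2 fold change 4.87, adjusted p = 0.000432). Without EV replicate 3 its remaining EV libraries held 0 counts, and no fold is given for that setting. Gsk3b, whose kinase primes cyclin D1 for degradation, did not pass (0.23, adjusted p = 0.154).

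**Figure D4:**
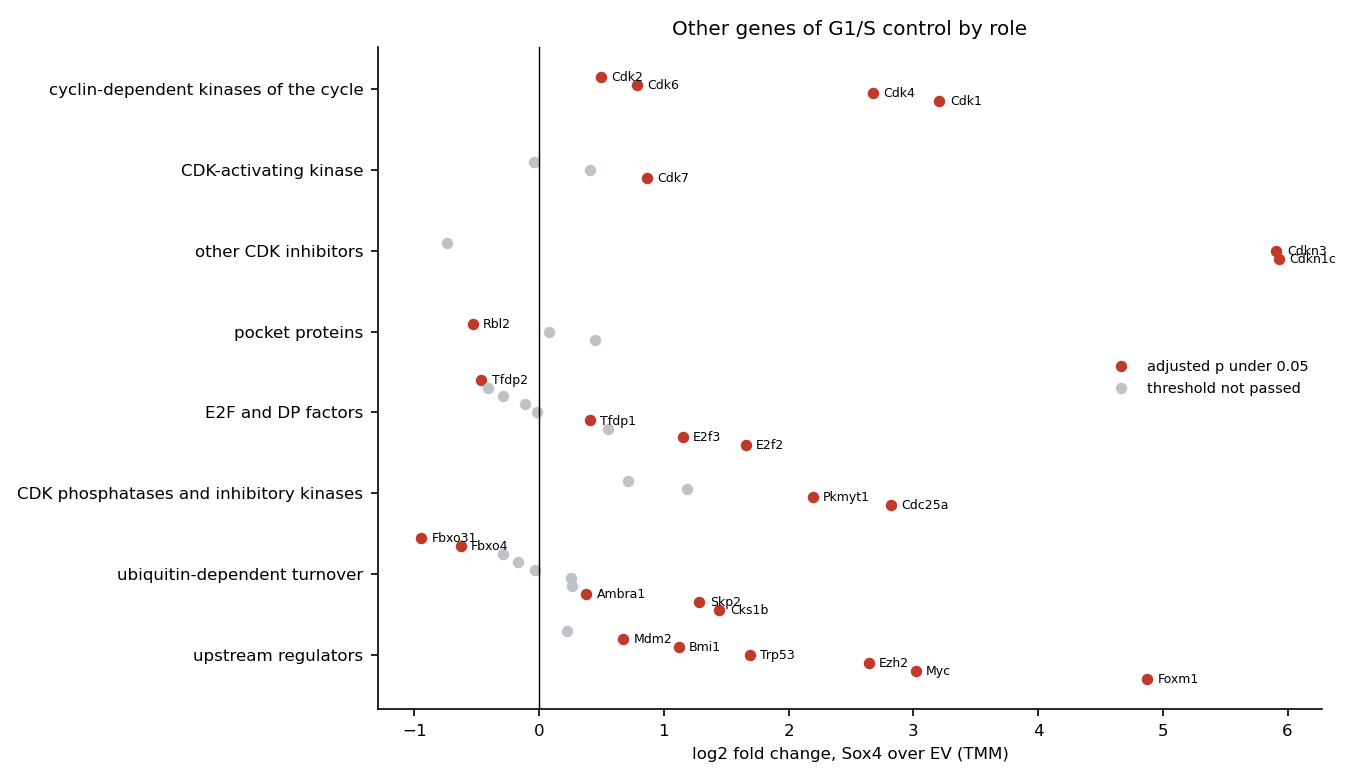
Log2 fold change of Sox4 over EV (x axis, TMM) for the 43 tested genes of the G1/S lists, by role (rows). Red points passed an adjusted p threshold of 0.05 and are named, grey points did not. The kinases all lie to the right of 0, while E2F and turnover genes lie on both sides.

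Genes of later phases were counted beside them. Of 15 S-phase genes 13 rose (86.7%, against 29.0% of all tested genes) and 0 fell, with a median log2 fold change of 2.57. With library size alone 14 rose (93.3%, against 51.0% of all). Among the 13 were the replicative helicase subunits Mcm5 (3.53) and Mcm4 (2.62) and the methylation maintenance gene Uhrf1 (5.05, but 6.19 without EV replicate 2 and 4.45 without EV replicate 3). The call for Tyms was lost with DESeq2, with limma-voom and without most single libraries. All 12 mitotic genes rose, also with library size alone, with a median of 4.51, or 3.29 with 5 genes at the floor in EV set to their lower bound. The calls for Aurka, Aurkb and Birc5 were lost without Sox4 replicate 2 (adjusted p = 0.0924, 0.0528 and 0.0611). Mki67, the proliferation marker, was at least 62.1-fold higher, Cdc20 rose by 4.67 and Top2a by 4.35. The mitotic sum was 62.9, 74.1 and 44.95 CPM in Sox4 1 to 3 and 5.39 to 7.63 CPM in EV, and the S-phase sum was 268.8, 231.6 and 188 CPM in Sox4 and 79.0 to 81.1 CPM in EV. Sox4 3, with the most Ccnd1, had the lowest of both sums in Sox4, and also the least Ccna2 and Ccne1.

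Non-parenchymal cells also express cyclins, and fewer cells of a type and less RNA per cell cannot be told apart in such libraries. For the counts of markers below, 29.0% of all tested genes rose and 26.0% fell. With library size alone 51.0% of all tested genes rose and 12.8% fell. With TMM the shares that rose were 37.5% for Kupffer cell and 25.0% for endothelial markers, near that of all tested genes. With library size alone they were 87.5% and 25.0%, against 51.0% of all. Their median log2 fold changes with TMM were 0.89 and 0.42, against 0.04 for all tested genes. Kupffer cell markers (3 of 8 tested rose, 0 fell; 7 rose with library size alone) summed to 11.9, 23.1 and 27.45 CPM in EV and 26.5, 53.7 and 64.0 CPM in Sox4. Stellate cell markers (3 of 4 rose, and 4 with library size alone) summed to 8.55, 26.9 and 46.3 CPM in EV and 134.8, 142.4 and 84.6 CPM in Sox4. Most of that sum was Reln (92, 298 and 517 counts in EV, 2522, 2291 and 1003 in Sox4), while Col1a1 and Pdgfrb had 22 counts or fewer in each library and were at 0 in EV 1. The call for Reln was lost with no filter, with the replicate number as a block and without some single libraries. That for Col3a1 was lost with limma-voom, with limma on the deposited signal and without some single libraries. Endothelial markers (2 of 8 rose and 1 fell, and with library size alone 2 rose and 0 fell) summed to 19.7, 29.4 and 35.6 CPM in EV and 16.7, 36.5 and 39.0 CPM in Sox4. Each of these 3 endothelial calls (Clec4g, Kdr and Stab2) was lost without some single libraries. EV 1, with the least Ccnd1, had the lowest of these 3 sums in EV. Sox4 1 had a lower endothelial sum than any EV library. Sox4 3, with the most Ccnd1, had the highest Kupffer and endothelial sums and the lowest stellate sum of the Sox4 libraries. Cholangiocyte markers (1 of 4 rose, and 3 with library size alone) had sums of 36.45 to 48.9 CPM (EV) and 51.5 to 57.2 CPM (Sox4), with Krt7 at 0 in every EV library. Blood markers (0 of 2 rose, 1 fell) had sums of 93.8 to 126.6 CPM (EV) and 5.83 to 16.04 CPM (Sox4). Alas2, the marker that fell, made up most of each sum, at 92.5 to 125.8 CPM (EV) and 4.10 to 14.6 CPM (Sox4). Ptprc, the other tested marker, had a log2 fold change of 0.96 and did not pass (adjusted p = 0.205). The untested blood markers had 7 counts or fewer in each library. These sums thus follow Alas2 and do not describe blood cells as a class. The markers named here were chosen after their values were seen. The part of these cells in the changes of Ccnd1, Ccnd2 and the other genes was not tested.

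By GENCODE M21 (GRCm38), Ccnd1 and Ccne1 lie on chromosome 7, Ccnd2 and Cdkn1b on chromosome 6, Ccnd3 and Cdkn1a on chromosome 17, Ccne2, Cdkn2a and Cdkn2c on chromosome 4 and Ccna2 on chromosome 3. Some overlap a gene on the opposite strand, and whether counting used strand was not stated, so that reads from the shared stretch cannot be assigned. Stretches of 50 bases also found in any other gene, on either strand, made up 21.6% of Ccnd1, 14.4% of Ccne2 and 11.4% of Ccna2. For Cdkn1a, Ccnd2 and Ccnd3 these shares were 8.49%, 6.31% and 5.39%. The gene sharing most was LTO1 for Ccnd1, Ints8 for Ccne2, Exosc9 for Ccna2, AC167363.2 (with no value here) for Cdkn1a, Gm43126 for Ccnd2 and Bysl for Ccnd3. LTO1 had 7.32 CPM in EV and 10.9 CPM in Sox4, well below Ccnd1 in Sox4. Ints8 and Exosc9 had log2 fold changes of 1.16 and 0.66 themselves, and for Ccne2 the former was larger than its own. Ccne1, Cdkn1b, Cdkn2a and Cdkn2c had no such overlap.

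For each gene that passed the test, the nearest of about 9024 genes whose mean count was 100 or more were found by the root mean square difference of centred log2 CPM over the 6 libraries, a description of 6 values only. Nearest to Ccnd1 were Serpina7 (0.177), Osbpl3 (0.277) and Anxa2 (0.308). Nearest to Cdkn1a were Vps72 (0.0946), Zfas1 (0.112) and Zfp668 (0.113). Ccnd3 was most like Rabep1 (0.0494) and Cdkn2c most like Golgb1 (0.0606). Ccne1 had Fgfr1 (0.153) and Ccnd2 had Efna5 (0.139) nearest. Ccna2 lay further from its nearest genes, with Gbp9 at 0.24 and then Abcc12 at 0.46 and Ect2 at 0.564. Its EV counts of 0, 4 and 9 limit that comparison, since the other genes had a mean count of 100 or more.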

How the data were processed

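RNA-seq libraries of hepatocytes from 3 EV and 3 Sox4 mice were compared, with group and replicate number taken from the labels. Each library is a separate animal per the study. The authors aligned reads to GRCm39 with STAR (2.7.10b in the submitters' processing notes) and counted them with featureCounts 2.0.1. Raw counts for each gene were deposited. The authors also deposited a signal, the counts divided by a DESeq2 size factor per library. The annotation release and strand setting are not given in the sources used here.

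The counts were fitted with edgeR 4.0.16 (R 4.3.3): filterByExpr (minimum count 10, minimum total 15; 12691 of 53599 symbols kept), TMM scaling, and the quasi-likelihood F test (robust, without covariates), with Benjamini-Hochberg adjustment over all genes tested and a threshold of 0.05. All adjusted p-values in the text are from this edgeR test unless another is named. Each SE belongs to the difference of the 2 group means of log2 CPM (prior count 2). Against EV libraries all at the floor of 3 counts, the fold is a lower bound over the mean floor of that group. The script was tested on simulated data.

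Alternatives were DESeq2 size factors, library size alone, no filter, a mean count of at least 50, DESeq2 1.42.0, limma-voom (limma 3.58.1), limma on log2 of the deposited signal + 1, a replicate block, and leaving out each library.

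The 10 genes and all lists were chosen with earlier results of these data known. Named genes were the 10, every called gene of the G1/S lists with a mean count of 20 or more, up to 3 genes of each other list with the largest change and a mean count of 50 or more, and up to 3 genes most like each called gene. Exceptions are said to be named after their values were seen, or are named because their call was lost under an alternative. Exon lengths, overlaps and chromosomes came from GENCODE M21 (GRCm38), a build other than that of the counts. Promoter windows and their coordinates came from RefSeq (GRCm38.p6), were searched on both strands and were not joined to the counts by position.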

Additional observations from a re-analysis of the deposited data

How the results depend on the processing

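With library size alone, 6468 genes were higher and 1624 lower, 0 of the 10 genes fell, Cdkn1b turned to 0.28 (adjusted p = 0.103), Cdkn2c missed the threshold at -0.53 (adjusted p = 0.0664) and Ccne2 passed it at 1.11 (adjusted p = 0.0189). At a mean count of at least 50, 4 of the genes changed and 3 rose, because Ccnd2, Ccne1, Ccne2 and Ccna2 were no longer tested. Ccnd2 missed the threshold with limma-voom (1.45, adjusted p = 0.0531) and without each EV replicate, Sox4 replicate 2 or Sox4 replicate 3, with values from 1.36 to 1.89 over the left-out libraries. Of 122 values of single genes under the alternatives, 113 kept their direction and side of the threshold. All other counts stayed within 1.5 times the value reported: 5937 to 8092 genes changed over the alternatives, 6027 to 7269 with 1 library left out, and 23 to 32 genes of the G1/S lists against 25. Whether replicate numbers pair the libraries was not stated. Same-numbered libraries had correlations of 0.27, -0.09 and 0.13 in their deviations from the group means, which cannot decide it with so few libraries. With the number as a block Ccnd1 was at 3.33, Ccne1 at 1.99, Ccna2 at 3.55, Cdkn1a at 1.48 and Cdkn1b at -0.18, and no call among the 10 genes changed. Genes with few EV counts (Ccnd2, Ccne1, Ccna2) are limited by depth.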

Other observations

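Cyclins outside the G1 group were counted from a list of 17 genes, of which 15 were tested. Of these, 8 rose (53.3%, against 29.0% of all tested genes) and 2 fell, with a median log2 fold change of 0.35. With library size alone 10 rose (66.7%, against 51.0% of all) and 1 fell. The call for Ccni was lost without each EV replicate, Sox4 replicate 2 or Sox4 replicate 3. No EV library had the mitotic cyclins above the floor. Ccnb1 had 0 counts in EV and 107, 160 and 63 counts in Sox4, at least 24.7-fold higher (edgeR adjusted p = 0.00011). Ccnb2 had 0, 1 and 3 counts in EV and 124, 146 and 153 counts in Sox4, at least 31.6-fold higher (adjusted p = 9.35e-06). Ccnj rose from 2.702 ± 1.03 to 18.8 ± 1.81 CPM (SD, n = 3), a log2 fold change of 2.80 (adjusted p = 1.95e-05). The genes that fell, named after their values were seen, were Ccnf, a ubiquitin ligase subunit that does not activate CDKs, at -1.66 (adjusted p = 6.38e-05), and Ccny at -0.41 (adjusted p = 0.0139). Ccny was at 0.06 with library size alone, and missed the threshold without EV replicate 2 (adjusted p = 0.0586) or Sox4 replicate 2 (0.0611). Ccnf had 349, 422 and 449 counts in EV and 225, 208 and 140 counts in Sox4.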
